A study of Mus musculus with 24 samples.

Results

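Normal LSK cells were set against normal granulocyte monocyte progenitors (GMP) on 7 of the 24 arrays of a mouse leukemia series. The 7 were chosen by title: the 3 samples titled HSC, which the labels give the LSK phenotype, and the 4 titled GMP. All were sorted C57BL/6 cells that had received no vector. Ages, sexes and animals per sample are not given in the sources used here. Whether replicates were separate animals or sorts is not given either, so the p-values reflect only how these samples vary, and that variation may be technical. The other groups of the series were GMP carrying GFP alone or a fusion oncogene, taken 36 hours after infection, and leukemic GMP. In the study's design, the step from LSK to GMP stands for the loss of self-renewal, and it was used to narrow the genes that the oncogenes changed.

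LSK cells are bone marrow cells that lack lineage markers and carry Sca-1 and Kit. They hold the long-lived blood stem cells together with multipotent progenitors, so an LSK profile is that of a mixture. GMP lie further along the myeloid branch, divide rapidly, and give rise to neutrophils and monocytes. They are known for making the proteases and peroxidase of the first neutrophil granules. In RNA from pooled cells, fewer cells of a type and less RNA per cell cannot be told apart.

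Stem cell genes, interferon response genes, early erythroid genes and immediate early genes were higher in LSK, while genes of the primary granules, the endoplasmic reticulum and the monocyte lineage were lower. Levels below are the deposited log2 values, listed in the order LSK 1 to 3 and then GMP 1 to 4. Differences are LSK minus GMP on the log2 scale with the standard error (SE) of limma, whose Benjamini-Hochberg adjusted p is given. A probe set was tested where its linear value passed 60, the study's background level (5.91 in log2), on at least 2 arrays of either group. By this rule 1734 of 11452 probe sets (15.1%) passed an adjusted p of 0.05, and 3327 had an unadjusted p under 0.05. Of the 1734, 1160 were higher and 574 lower in LSK, or 66.9% higher. By the brightest probe set of each gene, 797 of 7138 genes were higher (11.2%) and 376 lower (5.27%). Of these called genes 369 had another probe set tested. At least 1 such probe set passed in the same direction for 214 genes, and in the opposite direction for 1. Hoxa9, Gata2, Socs3, Zfp36l2, Ctnnb1 and Racgap1, named below, each had another tested probe set that was not called. Ccnd1, Mcl1 and Mrpl52 were among genes whose other tested probe sets were partly called, in the same direction, and partly not. At least a 2-fold difference was seen for 449 higher and 150 lower genes, and at least 4-fold for 91 and 20. Where the mean of a group lay under 60, a fold is given only as a lower bound ("at least"), with each of that group's arrays under 60 set to 60 before averaging. Such a bound is also given for genes with 2 or more arrays of the dimmer group under 60. With 1 such array the fold is of the means as deposited. A gene that passed the filter through 1 group alone could hardly be called lower in that group, and list counts carry this limit.

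**Figure D1:**
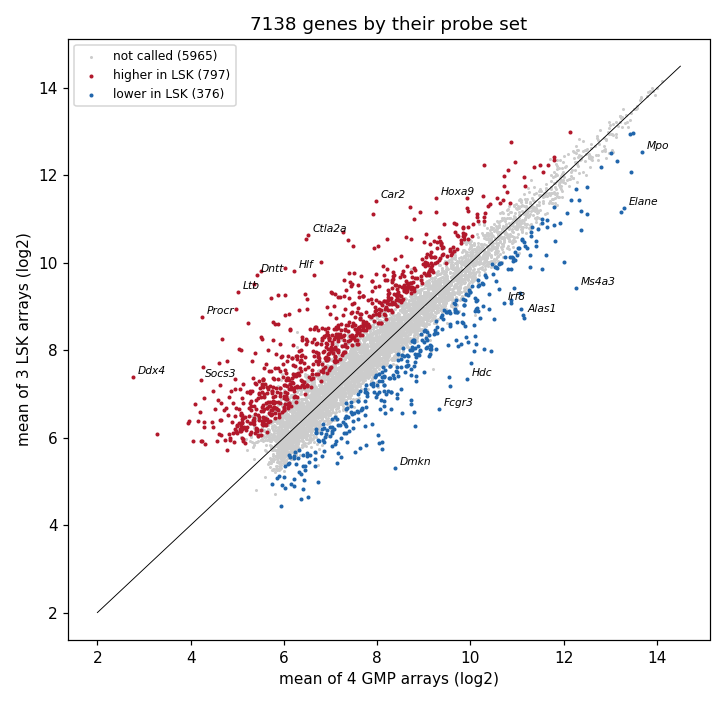
Each point is 1 of the 7138 genes tested, placed by its mean log2 level on the 4 GMP arrays (horizontal axis) and on the 3 LSK arrays (vertical axis). The 797 genes higher in LSK (red) lie above the diagonal and the 376 lower (blue) below it; gene names mark examples from the text.

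The arrays differed in ways that touch these counts. Between 46.1% and 48.0% of probe sets exceeded 60 on each. Correlations over 11571 probe sets ran from 0.977 to 0.987 among LSK arrays and from 0.977 to 0.989 among GMP 1, GMP 3 and GMP 4, but from 0.932 to 0.969 between GMP 2 and the other GMP arrays. GMP 2 gave the lowest of the 4 GMP values for 5189 of the 7138 genes. Without it, 2864 probe sets passed, 1519 higher and 1345 lower, and 1730 of the 1734 kept their call and sign. Leaving out any other array gave 765 (without LSK 1), 867 (LSK 2), 1086 (LSK 3), 978 (GMP 1), 1327 (GMP 3) or 2101 (GMP 4) probe sets. Quantile normalization gave 1399 higher and 1383 lower (50.3% higher), and centring each array on its median gave 1531 and 1419 (51.9%). That centring moved the median difference over probe sets from 0.06 to −0.05, so small differences of either sign depend on the scaling. File names carry a tag A for LSK 1, LSK 2 and GMP 1 to 3, a tag B for GMP 4 and none for LSK 3. The labels do not say what the tag stands for. The Gapdh control probes, 3' minus 5' end, ran from 4.05 to 4.51 (log2) in LSK and from 3.40 to 4.33 in GMP. The ranges of this sign of RNA quality thus overlapped between the groups. LSK 3 was the highest LSK array by Gapdh (4.51) and by the actin control (2.87). GMP 2 was the highest GMP array by both (4.33 and 2.95). The part of RNA quality in other results was not tested. Within tag A alone, 1165 probe sets passed.

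**Figure D2:**
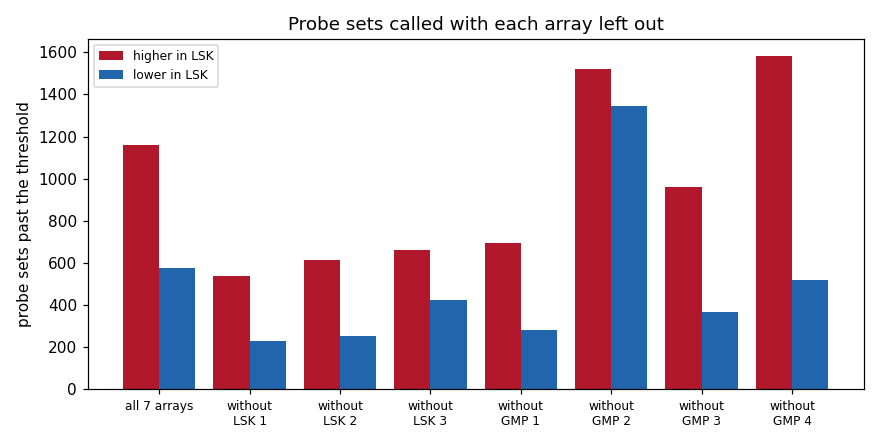
Bars give the number of probe sets past the threshold that were higher (red) or lower (blue) in LSK, with all 7 arrays and with each array left out. The count of lower probe sets went from 574 to 1345 without GMP 2, and the count of higher ones from 1160 to 539 without LSK 1.

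Of the sort genes tested, Kit and Cd34 were higher in LSK and the Fc gamma receptor genes Fcgr3 and Fcgr2b lower. Kit, the stem cell factor receptor, stood at 11.75, 11.56 and 11.26 in LSK and at 10.03, 9.85, 10.33 and 10.85 in GMP. It was higher by 1.26 ± 0.25 (SE; adjusted p = 0.00983), although GMP also carry Kit and without LSK 1 its adjusted p was 0.0573. Cd34, the sialomucin that marks early progenitors, was likewise higher in LSK by 1.26 ± 0.24 (adjusted p = 0.00807). Fcgr3, an Fc gamma receptor of the kind used to gate GMP, stood at 6.11, 6.57 and 7.29 in LSK against 9.44, 9.30, 9.18 and 9.36 in GMP. All 3 LSK arrays lay below every GMP array, with LSK 3 closest to them. The difference was −2.67 ± 0.25 (adjusted p = 3.83e-04), or 6.36-fold lower. Fcgr2b, the inhibitory Fc gamma receptor, was 3.91-fold lower (adjusted p = 6.13e-04). Il7r, the receptor of lymphoid progenitors, did not reach the filter in either group. The gene of Sca-1 was not analysed here.

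Among surface and signature genes of stem cells, 19 of 22 tested members were higher in LSK and none lower, against 11.2% of all genes higher. The list held 36 genes, 30 of them on the array. The mean level passed 60 for 20 of these in LSK and for 9 in GMP. Members that passed the filter through LSK alone could hardly be called lower, so the count does not test direction. Its median difference was 1.63, beside 0.06 for all genes tested, and leaving out single arrays gave 15 to 19 higher members. Procr, the endothelial protein C receptor and a marker of long-term stem cells, stood at 8.69, 8.91 and 8.71 in LSK. In GMP it was at 3.91, 3.57, 4.84 and 4.65, under background on all 4 arrays. Procr was therefore at least 7.26-fold higher in LSK (adjusted p = 4.3e-05).

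Flt3, the receptor of multipotent and lymphoid-primed progenitors, stood at 10.02, 10.23 and 9.80 in LSK and at 6.99, 5.99, 7.46 and 6.79 in GMP. The LSK arrays lay close together, and GMP 2 was the lowest array. The difference was 3.21 ± 0.31 (adjusted p = 4.08e-04), or 9.25-fold. Ltb, the lymphotoxin beta chain, was at least 10.7-fold higher (adjusted p = 3.05e-06), from 9.28 to 9.38 in LSK and 4.80 to 5.18 in GMP. Tgm2, a transglutaminase, was at least 12.1-fold higher (adjusted p = 1.88e-04), and Esam, an adhesion molecule of stem cells and endothelium, at least 1.70-fold (adjusted p = 0.00151). Slamf1 (CD150) did not pass, at 5.91, 5.56 and 5.92 against 5.30, 5.32, 5.54 and 5.17, values around background (adjusted p = 0.095). Hoxb4 and Itga6 did not pass either, with adjusted p of 0.392 and 0.31, and both overlapped between the groups.

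Stem cell transcription factors showed 19 higher and 0 lower among 33 tested of 41 listed, against 11.2% of all genes higher. Their median difference was 0.93, and the mean level passed 60 for 33 listed genes in LSK and for 27 in GMP. Hlf, a PAR-type leucine zipper factor enriched in stem cells, stood at 9.99, 9.90 and 9.55 in LSK and at 5.84, 5.99, 6.57 and 6.45 in GMP. Every LSK array lay far above every GMP array, and the difference was 3.60 ± 0.22 (12.1-fold, adjusted p = 2.76e-05). Meis1, the homeodomain partner of Hox proteins, stood at 9.49, 9.13 and 9.20 against 5.32, 5.09, 6.58 and 6.50. GMP 3 and GMP 4 were over background while GMP 1 and GMP 2 were not, and Meis1 was at least 8.29-fold higher in LSK (adjusted p = 6.79e-04).

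Hoxa9, a homeobox gene of stem and early myeloid cells and a partner in the NUP98-HOXA9 fusion, stood at 11.36, 11.71 and 11.38 in LSK. In GMP it was at 9.18, 8.59, 9.59 and 9.68, still bright, so that its difference was 2.22 ± 0.26 (4.67-fold, adjusted p = 0.00106). The other tested probe set of Hoxa9 was not called. Hoxa5 rose by 1.79 ± 0.16 (adjusted p = 2.84e-04). Hoxa7 stood at 7.34, 7.36 and 7.12 against 7.26, 7.73, 7.19 and 6.68, so its groups overlapped (adjusted p = 0.891). Sox4, an HMG box factor of early progenitors, was 3.39-fold higher (adjusted p = 0.00186), and Gata2, a zinc finger factor of stem and mast cells, 3.00-fold (adjusted p = 0.00428). Tal1 and Lmo2, which act in one complex with GATA factors, were 4.06-fold and 2.43-fold higher (adjusted p = 0.0034 and 0.00141; named after their values were seen). Runx1, at 8.45, 8.40 and 8.17 against 7.67, 6.97, 8.21 and 7.95, overlapped and did not pass (adjusted p = 0.157). Mecom did not reach the filter. Myb, a factor of proliferating progenitors, was level, between 11.91 and 12.06 in LSK and 11.87 and 12.04 in GMP (adjusted p = 0.876).

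**Figure D3:**
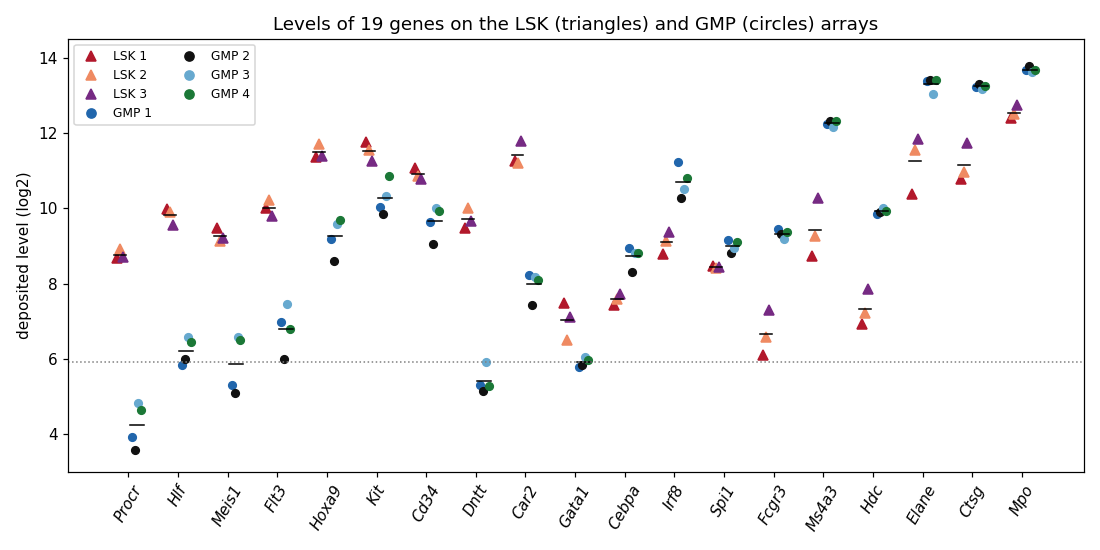
Deposited log2 levels of 19 genes on the 3 LSK arrays (triangles) and 4 GMP arrays (circles), coloured by array, with short lines at group means and a dotted line at the background of 5.91. The groups separate for each gene: Procr, Hlf and Meis1 are near background in GMP, while Mpo, Elane and Ctsg are bright in both groups and higher in GMP.

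Some genes of other lineages were also higher in LSK. Of 17 tested erythroid genes out of 30 listed, 11 were higher (11.2% of all genes were) and 1 lower, with a median of 1.12. The mean level passed 60 for 16 listed genes in LSK and for 11 in GMP, so some could pass the filter through LSK alone. Car2, carbonic anhydrase 2, stood at 11.26, 11.21 and 11.80 in LSK and at 8.23, 7.43, 8.16 and 8.11 in GMP, a 10.8-fold difference (adjusted p = 6.58e-05). Car1, the erythroid carbonic anhydrase, stood at 11.33, 9.55 and 11.24 against 7.45, 6.51, 8.19 and 6.90. LSK 2 was the lowest LSK array for Car1 but still above all GMP arrays (difference 3.44 ± 0.50, adjusted p = 0.00249). Gata1 and Klf1, the master regulators of red cell genes, were at least 2.10-fold and 2.41-fold higher (adjusted p = 0.0115 and 0.0151; named after their values were seen). Both lost their call without LSK 1 (adjusted p = 0.0534 and 0.069), and the count of higher members fell to 5 without LSK 1 and to 5 within tag A. Tfrc, the transferrin receptor of iron-hungry dividing cells, was lower (difference −0.51 ± 0.15, adjusted p = 0.0439), but kept this call only when GMP 2 was the array left out (adjusted p of 0.0535 to 0.187 without any other). Genes of late red cells such as Alas2, Slc4a1, Hba-a1 and Hbb-b2 did not reach the filter. Summed over the 26 listed genes on the array, including those under the filter, linear levels ran from 6176 to 9464 in LSK and from 2474 to 2846 in GMP.

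In the lymphoid list, 12 of 41 genes passed the filter, 5 being higher and 1 lower, beside 11.2% and 5.27% of all genes. The list's median difference was −0.04, with 5 differences positive and 7 negative. Flt3 and Ltb, among its higher members, are also on the stem cell surface list. Dntt, the DNA polymerase that adds nucleotides to antigen receptor joints and marks lymphoid priming, stood at 9.47, 10.02 and 9.67 in LSK. GMP gave 5.29, 5.15, 5.92 and 5.29, only GMP 3 touching the background, and Dntt was at least 14.0-fold higher (adjusted p = 1.39e-05). Satb1, a chromatin organiser of lymphoid cells, was 3.72-fold higher (adjusted p = 0.00209). The lower member was Nkg7, a granule membrane gene (difference −1.30 ± 0.16, adjusted p = 0.00131) that is also on the primary granule list. Genes of committed lymphocytes, including Cd79a, Ebf1, Pax5, Rag1, Cd3d and Cd8a, did not pass the filter in either group. Ighm was nevertheless bright on every array, from 10.90 to 11.39 in LSK and 10.80 to 11.51 in GMP (adjusted p = 0.945).

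Platelet lineage genes were split. Of 10 tested of 29, 3 were higher and 1 lower. For this list and the mast cell list below, 11.2% of all genes were higher and 5.27% lower. F2r, a thrombin receptor, stood at 11.14, 10.87 and 11.50 in LSK and at 8.02, 8.30, 9.94 and 9.43 in GMP (4.76-fold, adjusted p = 0.00904). Plek was 3.32-fold higher (adjusted p = 0.00404), and F10, which encodes a clotting factor, was at least 1.51-fold lower (adjusted p = 0.00118). Pf4, the platelet chemokine, did not pass (difference −0.65 ± 0.28, adjusted p = 0.157), and Vwf, Itgb3 and Gp5 did not reach the filter. Among mast cell, basophil and eosinophil genes, Hdc was the clearest. This histidine decarboxylase, which makes histamine, stood at 6.92, 7.23 and 7.86 in LSK against 9.84, 9.90, 10.02 and 9.93 in GMP, 6.00-fold lower (adjusted p = 2.07e-04). The eosinophil granule genes Prg2 and Epx lay lower without passing (adjusted p = 0.0781 and 0.0615). Of the 9 tested genes of this list 2 were lower (5 without GMP 2 or GMP 4, and 1 without LSK 1 or GMP 1) and 1, Gata2, was higher.

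Primary granule genes differed in the other direction. Of 20 tested of 25 listed, 17 were lower in LSK and 0 higher, against 5.27% of all genes lower, with a median of −1.33. Leaving out single arrays gave 14 to 17 lower members. The PU.1 core GAGGAA, searched on both strands in the 250 bases before each gene's start, occurred in 7 of 18 promoters of the list (38.9%), in 22.4% of genes tested and in 23.1% of all promoters given. Promoters of 3 azurophil granule genes that hold it are printed with each match in capitals, from RefSeq (GRCm38.p6), to show where it lies. Elane (chr10:79886062-79886311, plus strand) and Prtn3 (chr10:79879417-79879666, plus strand) are neighbours on chromosome 10, and Mpo is at chr11:87793534-87793783, plus strand. The Runx core TGTGGT lay in 33.3% of the list and in 10.5% of genes tested. The C/EBP core TTGCNNAA lay in 11.1% of the list and in 7.38% of genes tested. Neither the GATA core, held by 5.49% of genes tested, nor the CRE, held by 2.63%, lay in any of the 18. Among all genes higher and all genes lower in LSK, the shares lay close together. They were 24.3% and 24.7% for PU.1, 10.5% and 12.2% for Runx, and 7.08% and 8.88% for C/EBP. For GATA they were 7.38% and 6.58%, and for the CRE 2.46% and 1.64%. No motif share was tested.
Elane: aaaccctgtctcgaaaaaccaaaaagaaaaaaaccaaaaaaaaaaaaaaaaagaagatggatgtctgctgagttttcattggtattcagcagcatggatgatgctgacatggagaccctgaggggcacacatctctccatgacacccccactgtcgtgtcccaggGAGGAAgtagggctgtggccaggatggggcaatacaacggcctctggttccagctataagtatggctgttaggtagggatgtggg
Prtn3: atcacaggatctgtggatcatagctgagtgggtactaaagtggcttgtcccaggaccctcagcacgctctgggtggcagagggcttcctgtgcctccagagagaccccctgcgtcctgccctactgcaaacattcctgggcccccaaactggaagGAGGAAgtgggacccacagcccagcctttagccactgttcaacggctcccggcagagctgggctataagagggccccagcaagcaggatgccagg
Mpo: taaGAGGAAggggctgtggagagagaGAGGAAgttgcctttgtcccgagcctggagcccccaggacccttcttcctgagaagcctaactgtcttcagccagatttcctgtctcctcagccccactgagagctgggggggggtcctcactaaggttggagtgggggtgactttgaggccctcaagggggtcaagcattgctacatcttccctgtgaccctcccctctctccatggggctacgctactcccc
A match describes these letters only. In Elane and Prtn3 the match begins 85 and 95 bases before the start, and in Mpo the 2 matches begin 247 and 224 bases before it.

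Elane, neutrophil elastase, stood at 10.37, 11.54 and 11.85 in LSK and at 13.37, 13.40, 13.03 and 13.41 in GMP. LSK 1 was lowest, and the difference was −2.05 ± 0.32 (4.14-fold, adjusted p = 0.00325). Mpo, myeloperoxidase, was bright in both groups, at 12.39, 12.50 and 12.73 against 13.67, 13.78, 13.61 and 13.67 (2.21-fold lower, adjusted p = 0.0015). Prtn3, proteinase 3, was 2.55-fold lower (adjusted p = 0.00133; named after its values were seen). Ms4a3, a membrane protein known as a marker of GMP, stood at 8.74, 9.25 and 10.27 against 12.25, 12.31, 12.17 and 12.32. The GMP arrays were nearly level, while LSK 3 exceeded LSK 1 (7.19-fold lower, adjusted p = 6.61e-04). Alas1, which makes heme for myeloperoxidase and other proteins, had the smallest adjusted p of the list (4.3e-05), at 8.70, 8.87 and 8.88 against 11.36, 11.02, 11.09 and 11.02. LSK 3 gave the highest LSK value for 16 of the 20 genes, compared with 3218 of 7138 over all genes. Srgn, Lyz1 and Lyz2 were the 3 members that did not pass.

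Genes of the later, secondary granules gave smaller differences with the same lean. Of 22 tested, 6 were lower, against 5.27% of all genes, and 1 was higher. Their median was −0.25, and 19 of the 22 differences were negative. Whether this list differed from the primary granule list was not tested. Ngp, a neutrophil granule protein, stood at 11.99, 12.82 and 12.11 in LSK and at 12.93, 11.72, 12.21 and 12.24 in GMP, so the groups overlapped (adjusted p = 0.957). S100a8 was likewise bright on all arrays, at 12.74, 13.22 and 13.34 against 13.44, 13.25, 13.08 and 13.23 (adjusted p = 0.627), and Lcn2 and Camp overlapped too. Lcn2, the lowest of these, still lay between 9.80 and 11.48, so these markers of maturing neutrophils were bright under both labels. Their part in other results was not tested. The lower members included Ltb4r1, the leukotriene B4 receptor (−1.39 ± 0.15, adjusted p = 5.77e-04), and Pglyrp1 (−1.21 ± 0.23, adjusted p = 0.00891). Padi4, the enzyme that citrullinates histones in neutrophils, was the higher one. It stood at 8.25, 8.30 and 8.14 in LSK and at 6.53, 5.58, 6.74 and 6.69 in GMP (3.59-fold, adjusted p = 0.0027). Without GMP 1, LSK 1 or LSK 2 the lower members numbered 2.

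Several transcription factors of the myeloid branch were lower in LSK. Cebpa, needed to form GMP, stood at 7.44, 7.58 and 7.73 in LSK and at 8.95, 8.31, 8.82 and 8.82 in GMP (2.21-fold, adjusted p = 0.00402). Irf8, which directs monocyte fate, stood at 8.79, 9.12 and 9.36 against 11.23, 10.28, 10.52 and 10.81 (3.07-fold lower, adjusted p = 0.0029). Gfi1, a repressor needed for neutrophil fate, was 1.97-fold lower (adjusted p = 0.00296). The groups did not overlap for any of the 3. Spi1, the gene of PU.1, stood at 8.46, 8.41 and 8.44 against 9.16, 8.81, 8.94 and 9.11 (difference −0.57 ± 0.15, adjusted p = 0.0318). Without LSK 1, LSK 2, LSK 3, GMP 1 or GMP 3 its adjusted p rose to between 0.0688 and 0.116. In the list as a whole 6 of 21 tested members were lower and 2 higher, Irf1 and Jun, of which 0 passed without LSK 3 or GMP 1 and 1 without LSK 1, LSK 2 or GMP 3. The list's median was −0.07, with 10 differences positive and 11 negative. Over all genes 5.27% were lower and 11.2% higher. Cebpb did not pass (adjusted p = 0.207).

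Monocyte and macrophage genes followed, with 7 of 19 tested lower (5.27% of all genes were), 1 higher and a median of −0.54. F13a1, the coagulation factor XIII A chain of monocytes, stood at 7.05, 8.13 and 8.77 against 10.85, 10.00, 10.26 and 10.70 (5.54-fold lower, adjusted p = 0.00305). Csf1r, the receptor of macrophage colony-stimulating factor, stood at 9.69, 10.61 and 10.27 against 11.90, 11.29, 11.66 and 11.64. It was 2.70-fold lower (adjusted p = 0.00427), with no LSK array reaching the lowest GMP array. Ly86 was 4.47-fold lower (adjusted p = 0.00344). GMP 2 gave the lowest GMP value for 14 of the 19 genes, a share near that over all genes (5189 of 7138). Without GMP 2, 12 members were lower, and without LSK 1 or LSK 2, 4 were. Genes of mature macrophages such as Mrc1, Msr1 and C1qa did not reach the filter.

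Other large decreases fell outside these lists. Dmkn (dermokine) was at least 5.09-fold lower in LSK (adjusted p = 8.55e-04), at 4.62, 5.00 and 6.28 against 8.25, 8.39, 8.18 and 8.69. Papss2, which makes the sulfate donor of the cell, was 5.76-fold lower (adjusted p = 4.28e-04), and Anxa3, an annexin of neutrophils, 5.33-fold (adjusted p = 6.62e-04). Slpi, a protease inhibitor that restrains elastase, was 4.78-fold lower (adjusted p = 0.0015). Prom1, which encodes CD133, was at least 3.90-fold lower in LSK (adjusted p = 0.00259), at 5.20, 5.91 and 6.59 against 8.05, 8.33, 7.61 and 8.41. In Dmkn, Papss2, Anxa3, Slpi and Prom1 alike LSK 1 was lowest and LSK 3 highest of the LSK arrays.

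The protein export machinery was lower in LSK. Of 51 tested genes of the endoplasmic reticulum and secretory pathway, 27 were lower (5.27% of all genes were) and 1 higher, with a median of −0.65. The endoplasmic reticulum stress element, through which ATF6 acts, searched in its full form on both strands, lay in 7 of 41 promoters of the list (17.1%) and in 11 of all genes tested with a promoter (0.187%), beside 0.122% of all promoters. This motif was added after the data were seen. The promoters of 3 chaperone genes that hold it are printed, with the element in capitals on whichever strand it reads. Calr lies at chr8:84846932-84847181, minus strand, Hsp90b1 at chr10:86705445-86705694, minus strand, and Pdia6 at chr12:17266339-17266588, plus strand.
Calr: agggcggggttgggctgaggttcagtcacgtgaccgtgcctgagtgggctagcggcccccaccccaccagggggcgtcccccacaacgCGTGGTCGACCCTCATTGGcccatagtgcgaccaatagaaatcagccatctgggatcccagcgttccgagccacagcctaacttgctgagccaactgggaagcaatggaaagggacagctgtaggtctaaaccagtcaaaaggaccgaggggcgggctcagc
Hsp90b1: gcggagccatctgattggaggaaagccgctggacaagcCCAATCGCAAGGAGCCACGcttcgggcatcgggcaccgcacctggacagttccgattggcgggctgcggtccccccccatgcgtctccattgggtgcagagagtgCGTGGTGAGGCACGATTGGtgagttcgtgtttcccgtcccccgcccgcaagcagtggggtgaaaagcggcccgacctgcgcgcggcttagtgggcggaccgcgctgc
Pdia6: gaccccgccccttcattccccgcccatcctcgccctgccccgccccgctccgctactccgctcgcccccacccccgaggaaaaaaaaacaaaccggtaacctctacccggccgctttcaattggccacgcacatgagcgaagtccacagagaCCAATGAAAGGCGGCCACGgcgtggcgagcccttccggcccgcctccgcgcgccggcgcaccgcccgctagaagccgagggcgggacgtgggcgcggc
Hsp90b1 has 2 matches, 1 on each strand, and the others have 1 each. All 3 genes were lower in LSK (named after their values were seen): Calr, a calcium-binding chaperone, stood at 12.28, 12.32 and 12.36 against 13.13, 13.21, 13.12 and 13.11 (1.77-fold, adjusted p = 0.00374). Hsp90b1 was 1.82-fold and Pdia6 1.88-fold lower (adjusted p = 0.00403 and 0.00545).

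Within this pathway the lower members spanned its stages. Ddost, of the glycosylation complex, stood at 9.60, 9.14 and 9.46 against 10.69, 10.39, 10.56 and 10.85 (2.33-fold, adjusted p = 0.00249). Ssr4, of the translocon, was 2.15-fold lower (adjusted p = 0.00233), and P4hb, a disulfide isomerase, 2.29-fold (adjusted p = 0.00113). Tmed3, which sorts cargo into transport vesicles, was 2.83-fold lower (adjusted p = 0.00122), and the chaperone partner Sdf2l1 3.04-fold (adjusted p = 0.00225). The groups did not overlap in 37 of the 51 genes, against 31.5% of all genes. Hspa5 (BiP) stood at 12.10, 12.52 and 13.01 against 13.12, 13.10, 12.96 and 13.03. LSK 3 overlapped GMP there, and Hspa5 did not pass (adjusted p = 0.148). The higher member was Ddit3 (CHOP), a factor of the stress response (difference 0.72 ± 0.18, adjusted p = 0.0243), which lost its call without LSK 1, LSK 2, LSK 3 or GMP 1 (adjusted p of 0.0558 to 0.098). The number of lower members was 33 without GMP 2 and 13, 14 or 15 without LSK 2, LSK 1 or GMP 1.

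Interferon response genes were higher in LSK: 17 of 29 tested of 43 listed (11.2% of all genes were), with 0 lower and a median of 1.11. The interferon-stimulated response element, searched on both strands as its paired core and also added after the data were seen, lay in 10 of 25 promoters of the list (40.0%), in 2.65% of genes tested and in 3.04% of all promoters. It lay in 4.62% of genes higher and 3.95% of genes lower in LSK. Promoters of Ifit1 (chr19:34640639-34640888, plus strand) and Irgm1 (chr11:48871421-48871670, minus strand) are printed because both genes were higher and hold pairs of matches. Matches are in capitals, and those of Irgm1 overlap and read on the other strand.
Ifit1: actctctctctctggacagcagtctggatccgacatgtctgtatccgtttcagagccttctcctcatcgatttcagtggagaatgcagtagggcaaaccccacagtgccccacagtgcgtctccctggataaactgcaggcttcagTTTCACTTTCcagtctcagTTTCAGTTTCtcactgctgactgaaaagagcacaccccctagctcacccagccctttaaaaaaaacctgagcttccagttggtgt
Irgm1: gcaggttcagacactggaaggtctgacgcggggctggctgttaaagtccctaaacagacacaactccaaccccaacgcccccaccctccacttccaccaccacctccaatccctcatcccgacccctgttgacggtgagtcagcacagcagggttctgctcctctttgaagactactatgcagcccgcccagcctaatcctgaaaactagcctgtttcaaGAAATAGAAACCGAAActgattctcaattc
Ifit1, which blocks foreign RNA, stood at 6.26, 6.65 and 6.27 in LSK and at 3.80, 3.67, 4.43 and 3.95 in GMP, at least 1.40-fold higher (adjusted p = 2.36e-04). Irgm1, an immunity-related GTPase known to protect stem cells, was 2.15-fold higher (adjusted p = 0.00349; named after its values were seen).

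Iigp1, another of these GTPases, stood at 8.31, 8.70 and 9.85 against 4.61, 5.44, 5.17 and 4.69, at least 8.25-fold higher (adjusted p = 3.03e-04). Oasl2, of the oligoadenylate synthetase family, stood at 8.23, 7.92 and 7.89 against 4.88, 4.88, 5.26 and 5.29 (at least 4.31-fold, adjusted p = 2.76e-05). The LSK arrays were tight and every GMP array lay under background. Gbp2, a guanylate-binding protein, was 5.00-fold higher (adjusted p = 2.42e-04), and Rtp4, which is induced by interferon, at least 9.03-fold (adjusted p = 8.15e-05). The receptor genes did not move together with these: Ifnar1 and Ifnar2 overlapped between groups (adjusted p = 0.991 and 0.815), while Ifngr1 was lower in LSK (−1.27 ± 0.17, adjusted p = 0.00193). Psmb8, Psmb9 and Ifitm2 did not pass. Counts with single arrays left out were 12 to 18 higher members.

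Immediate early genes were higher in LSK as well, but unevenly between arrays. Of 26 tested, 13 were higher (11.2% of all genes were) and 1 lower (Gadd45b, adjusted p = 0.0673 without LSK 1), with a median of 1.40. Egr1, a zinc finger factor induced within minutes of stimulation, stood at 8.13, 9.15 and 10.50 in LSK and at 5.50, 7.57, 5.71 and 5.33 in GMP. LSK 3 was highest, and GMP 2 lay well above the other GMP arrays. The other 3 GMP arrays were under background, so Egr1 was at least 7.67-fold higher (adjusted p = 0.00974). Jun and Fos, which form the AP-1 dimer, were 4.64-fold and 3.77-fold higher (adjusted p = 0.0231 and 0.0132; named after their values were seen), and each lost its call without LSK 2 or LSK 3, Jun also without GMP 1 or GMP 3. LSK 3 was the highest LSK array for 23 of the 26 genes, and GMP 2 the highest GMP array for 18. Over all 7138 genes these were 3218 and 936. The number of higher members was 6 without LSK 2, 6 without LSK 3, 8 without GMP 1 and 4 within tag A. The part of these 2 arrays in the list's level was not tested beyond these counts.

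Zfp36l2 stood apart from that pattern, while Ccl3 and Rgs1, which belong to other lists, followed it. Zfp36l2, which destabilises messages and is needed by stem cells, stood at 11.61, 11.47 and 11.38 against 9.79, 9.71, 9.86 and 10.36 (2.94-fold, adjusted p = 0.00112), with LSK 3 the lowest LSK array. Mcl1, a survival protein that stem cells need, stood at 11.27, 11.33 and 11.45 against 10.36, 10.44, 10.42 and 10.46 (1.91-fold, adjusted p = 0.00254). Mcl1 ran nearly level within each group. Ccl3, a chemokine, stood at 8.54, 8.99 and 10.30 against 5.92, 7.85, 6.11 and 5.94 (7.08-fold, adjusted p = 0.00854). Rgs1, a brake on G protein signals, stood at 9.87, 10.07 and 11.72 against 5.36, 8.47, 6.15 and 5.89 (at least 15.4-fold, adjusted p = 0.0056). Both had LSK 3 and GMP 2 as the highest arrays of their groups. Egr1, Ccl3 and Rgs1 did not pass within tag A. In the NF-kB list 5 of 14 tested members were higher (11.2% of all genes were) and none lower. The higher members fell to 2 without LSK 3 and 3 without LSK 1, LSK 2, GMP 1 or GMP 3.

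**Figure D4:**
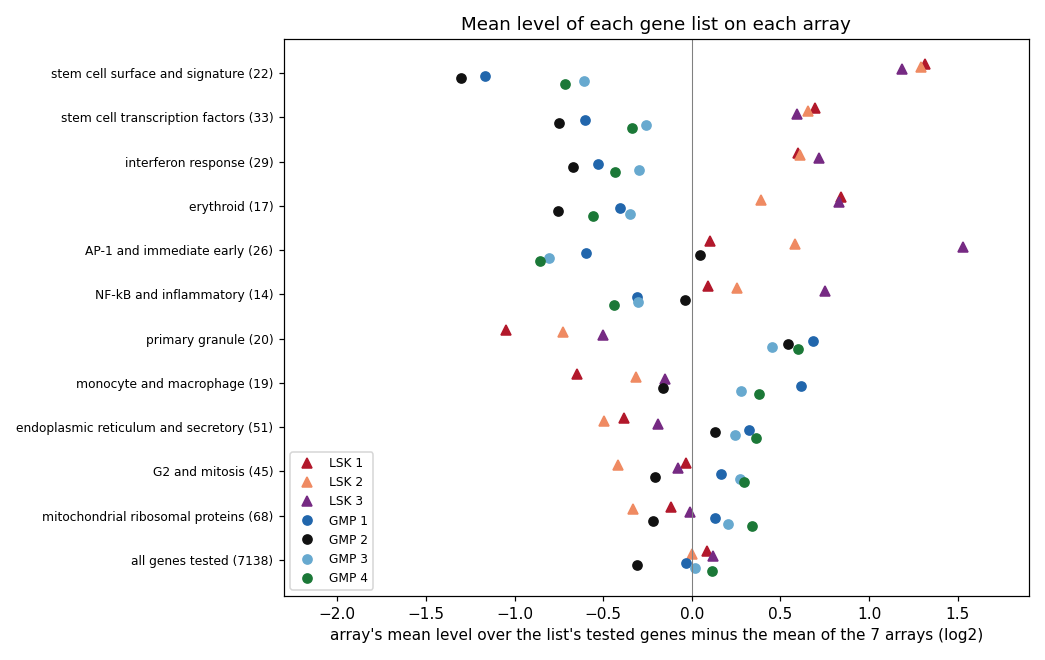
Mean log2 level of 11 gene lists and of all 7138 genes on each array, less the mean of the 7 arrays, with the number of genes in parentheses. Stem cell lists separate LSK (triangles) from GMP (circles) with a gap, whereas in the AP-1 and immediate early list LSK 3 is highest and GMP 2 lies next to LSK 1.

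Feedback inhibitors of cytokine and MAPK signals were higher in 9 of 20 tested genes (11.2% of all genes were) and lower in 0, with a median of 0.61. Socs3, which shuts off JAK signals, stood at 6.48, 7.55 and 7.91 in LSK and at 3.83, 4.55, 4.61 and 3.87 in GMP. All LSK arrays were over background and all GMP arrays under it, so Socs3 was at least 2.65-fold higher (adjusted p = 7.92e-04). The dual-specificity phosphatases Dusp2 and Dusp6, which switch off ERK kinases, were 3.07-fold and at least 2.65-fold higher (adjusted p = 0.00116 and 0.01). Dusp16 was at least 1.36-fold higher (adjusted p = 6.92e-04). Without LSK 1, LSK 2 or GMP 1 the count of higher members was 5, 4 or 5.

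Of 21 tested cytokine receptors 5 were higher and 4 lower. Il1r1, the interleukin 1 receptor, was 3.08-fold higher (adjusted p = 4.24e-04), at 7.77, 7.84 and 8.01 against 6.00, 6.29, 6.30 and 6.41. Il17ra was 3.13-fold higher (adjusted p = 0.00506). The lower receptors were Csf1r, Ifngr1, Il6ra and Tnfrsf1b, and Il6ra was at least 2.26-fold lower (adjusted p = 0.00542). Tnfrsf1b did not pass without LSK 1, LSK 2, LSK 3, GMP 1 or GMP 3 (adjusted p of 0.0772 to 0.113). Csf3r, the receptor of granulocyte colony-stimulating factor, overlapped between groups (adjusted p = 0.387). Over all genes 11.2% were higher and 5.27% lower in LSK. In the TGF-beta list 4 of 14 tested genes were higher (28.6%) and in the Wnt list 3 of 13 (23.1%). In the Notch list 2 of 11 were higher (18.2%). None was lower in these lists. Each of these 3 counts fell to 1 without LSK 1 or without LSK 2. The TGF-beta count was also 1 without LSK 3 and 2 without GMP 1, the Notch count 1 without either, and the Wnt count 6 without GMP 4. Notch2 was 2.15-fold higher (adjusted p = 0.00962) and Ctnnb1, beta-catenin, 1.68-fold (adjusted p = 0.0117), the latter losing its call without LSK 1 (0.0532) or LSK 2 (0.0554). Tgfbr2 stood at 8.40, 8.02 and 8.34 against 6.29, 5.39, 7.09 and 7.14 (3.43-fold, adjusted p = 0.0157), GMP 2 being under background. It did not pass without LSK 1 (0.0722) or LSK 3 (0.0606).

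Cell cycle genes differed little. Of 40 tested S phase genes 4 were lower in LSK (5.27% of all genes were) and 0 higher, with a median of −0.13, and of 45 genes of G2 and mitosis 5 were lower and 0 higher, with a median of −0.32. Rrm2, the ribonucleotide reductase subunit, stood at 9.86, 9.63 and 10.10 against 10.79, 10.85, 10.63 and 10.99 (1.93-fold lower, adjusted p = 0.00576). Racgap1, needed for cytokinesis, was 1.80-fold lower (adjusted p = 0.0124), though without LSK 2 its adjusted p was 0.0637. Aurka, Aurkb, Plk1 and Ube2c, regulators of mitosis, were lower by 1.65-fold to 1.77-fold, and none of them kept its call within tag A or without LSK 2, LSK 3, GMP 1 or GMP 3. GMP 2 gave the lowest GMP value for 36 of the 45 mitotic genes, beside 5189 of 7138 over all genes. Without GMP 2, 15 mitotic and 9 S phase genes were lower. Without LSK 2, 0 mitotic genes and 1 S phase gene were. Mitotic counts were 2 without LSK 1 and 1 without LSK 3, GMP 1 or GMP 3, and S phase counts 1 or 2 without any of these. Among 20 tested D cyclins, kinases and inhibitors, 3 were higher (15%, against 11.2% of all genes). The count was 1 without LSK 2, 6 without GMP 2 and 5 without GMP 4. Cdkn1c (p57), an inhibitor that holds stem cells in quiescence, was at least 1.30-fold higher (adjusted p = 0.00378), at 5.90, 6.55 and 6.41 against 4.87, 5.26, 5.11 and 4.71. Ccng2 was 2.30-fold higher (adjusted p = 0.00552), and Ccnd1 1.61-fold (adjusted p = 0.0136), the latter losing its call without LSK 2 or GMP 1 (0.0727 and 0.0588).

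Mitochondrial genes lay slightly lower in LSK, and the number called depended on the scaling. Of 67 respiratory chain genes 60 had a negative difference but 6 passed, with a median of −0.27, and of 68 mitochondrial ribosomal genes 57 were negative and 6 passed as lower, with 1 higher and a median of −0.30. Quantile normalization gave 21 and 31 lower genes in these lists, and median centring 25 and 34. The counts were 20 and 27 without GMP 2, and 0 and 0 without LSK 1 or without LSK 2. Without GMP 1 they were 1 and 0, without GMP 3 1 and 1, and the second was 3 without GMP 4. Ndufs5, a complex I subunit, stood at 7.30, 7.34 and 7.53 against 8.03, 8.30, 8.12 and 8.00 (1.65-fold lower, adjusted p = 0.0123), but did not pass without LSK 1 (0.0737) or LSK 2 (0.0605). Mrpl52 was the higher one, at 10.41, 10.41 and 10.28 against 9.30, 9.34, 9.61 and 9.42 (1.93-fold, adjusted p = 0.00307). In the citric acid cycle list Idh1 stood out at 8.56, 8.86 and 8.76 against 10.52, 9.94, 10.22 and 10.12 (2.78-fold lower, adjusted p = 0.00112). Of 38 cytosolic ribosomal and 40 proteasome genes 0 passed by limma, although 8 proteasome genes were lower without GMP 2, 8 under quantile normalization and 9 under median centring. In the remaining lists the counts were 4 higher and 1 lower of 20 for cholesterol synthesis, 7 and 2 of 27 for adhesion, and 3 and 1 of 14 for RGS genes. Over all genes 11.2% were higher and 5.27% lower. Cholesterol synthesis had 1 higher without LSK 1, LSK 2, LSK 3 or GMP 1, and lower members numbered 3 without GMP 2. Adhesion had 4 higher without LSK 1 or GMP 1, with 4 lower without GMP 2, 1 without LSK 2 or GMP 1 and 0 without LSK 1. Myc overlapped between groups (adjusted p = 0.446), and 1 of 41 ribosome biogenesis genes, Srm, was lower (adjusted p = 0.0338). Srm did not pass without LSK 1, LSK 2, LSK 3, GMP 1 or GMP 3 (0.0617 to 0.128), while 4 genes of that list were lower without GMP 2 and 6 under quantile normalization or median centring.

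Sugar metabolism shifted by gene. Slc2a3, a glucose transporter, stood at 9.48, 9.52 and 9.86 in LSK and at 7.22, 6.42, 7.78 and 7.73 in GMP (5.03-fold higher, adjusted p = 0.00193). Ddit4, an inhibitor of mTORC1 induced by hypoxia, was 4.70-fold higher (adjusted p = 7.22e-04). Txnip, which restrains glucose uptake, was 5.38-fold higher (adjusted p = 4.59e-04), at 10.86, 10.18 and 10.01 against 7.77, 7.63, 8.01 and 8.28. Pgam1, a glycolytic enzyme, was 2.34-fold lower (adjusted p = 0.00249), and Hk2 1.70-fold lower (adjusted p = 0.00962), with adjusted p of 0.0621 and 0.0525 without LSK 1 and LSK 2. Of 27 tested glycolysis and hypoxia genes 4 were higher and 3 lower, with 1 lower without LSK 1 or LSK 2. Lysosomal genes were lower in 10 and higher in 3 of 40. Beside both lists, 11.2% of all genes were higher and 5.27% lower. Hexa, a hexosaminidase subunit, was 2.03-fold lower (adjusted p = 0.0039), and Ctsh, a cathepsin, 2.39-fold (adjusted p = 0.00871; 0.0518 without LSK 1). Lower lysosomal members numbered 1 without LSK 1, 3 without LSK 2, 6 without LSK 3 and 6 without GMP 1.

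Of 31 tested efflux, detoxification and aldehyde dehydrogenase genes 10 were higher and 4 lower. For this and the next lists, 11.2% of all genes were higher and 5.27% lower. Abca1, a cholesterol exporter, was at least 2.47-fold higher (adjusted p = 0.0015), and Aldh7a1 2.51-fold (adjusted p = 0.00628). Gstm1, a glutathione transferase, was lower, at 9.27, 9.54 and 9.10 against 11.15, 11.27, 10.79 and 11.02 (3.37-fold, adjusted p = 4.92e-04). Higher members numbered 5 without LSK 1 or GMP 1, and lower ones 2 without LSK 1, LSK 2 or GMP 1 and 8 without GMP 2. Chromatin regulators were higher in 8 of 38 and lower in 0. The de novo DNA methyltransferases Dnmt3a and Dnmt3b, which limit stem cell self-renewal, were 2.48-fold and 2.56-fold higher (adjusted p = 0.0024 and 0.00364). Dnmt3a stood at 8.16, 8.40 and 8.29 against 6.85, 6.63, 7.10 and 7.30, and Dnmt1, the maintenance enzyme, overlapped (adjusted p = 0.96). Without LSK 1 and without LSK 2 the count was 3 and 5. Of 9 tested imprinted genes 5 were higher. Meg3, a maternally expressed long RNA, stood at 7.68, 9.11 and 7.92 against 5.88, 5.70, 5.87 and 5.58, at least 5.03-fold higher (adjusted p = 0.00131). Imprinted members called higher were 3 without LSK 1, LSK 2, LSK 3 or GMP 1. In the survival and p53 list 5 of 24 were higher, including Sesn1 (3.91-fold, adjusted p = 8.85e-04) and Trp53inp1 (at least 5.24-fold, adjusted p = 0.00346). Leaving out GMP 2 gave 8 higher and 1 lower there.

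Markers of cells that a sort could carry along were checked on both sides. Beside the counts given here, 11.2% of all genes were higher and 5.27% lower. In the endothelium and stroma list, 8 of 29 genes reached the filter and 3 were higher in LSK, Egfl7 (4.19-fold, adjusted p = 0.0011), Esam and Bgn (5 without GMP 2), while Cdh5, Kdr, Pecam1, Col1a1 and Lepr stayed under it. Linear levels over all 29 genes of this list summed to 1718 to 1964 in LSK and 1102 to 1418 in GMP. The mean level passed 60 for only 7 of them in LSK and 6 in GMP, so these sums are largely of genes under background. In the dendritic cell list 3 of 8 tested were higher, 2 of them, Flt3 and Tcf4, also stem cell list members. Tcf4 did not pass without LSK 1, LSK 2, LSK 3 or GMP 1 (adjusted p of 0.0551 to 0.0717), and the count was 1 without LSK 3 and 5 without GMP 4. H2-Aa, an MHC class II chain, stood at 8.77, 8.89 and 10.05 against 7.79, 6.22, 7.29 and 7.84, and lost its call without LSK 3 (adjusted p = 0.0649) and within tag A. Among sex-linked genes the Y-chromosome genes Kdm5d and Eif2s3y were detected in both groups and slightly higher in LSK (1.87-fold and 1.79-fold, adjusted p = 0.0446 and 0.0178), and Xist overlapped (adjusted p = 0.828). The 2 Y-linked calls were absent without LSK 1, LSK 2, LSK 3 or GMP 1.

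**Figure D5:**
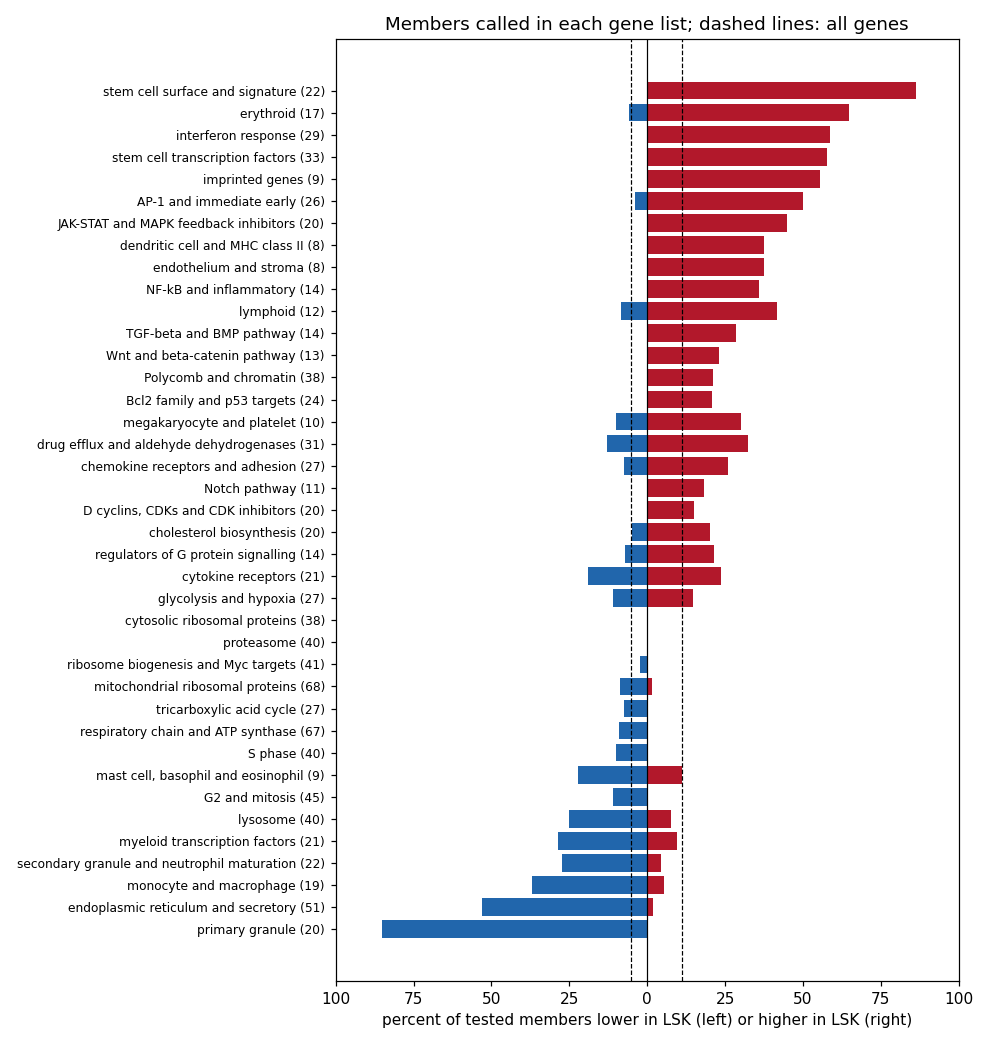
For the 39 gene lists with at least 8 tested genes, bars show the percent of tested members (number in parentheses) that were higher in LSK (right, red) or lower (left, blue), with dashed lines at the percent over all genes, 11.2 and 5.27. Stem cell surface genes reach furthest right, with 19 of 22 higher, and primary granule genes furthest left, with 17 of 20 lower.

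Other genes among the largest increases included a germ cell gene and a protease inhibitor pair. Ddx4 (Vasa), an RNA helicase known from germ cells, stood at 7.18, 7.45 and 7.56 in LSK and at 2.59, 2.50, 3.19 and 2.76 in GMP, at least 2.81-fold higher (adjusted p = 5.34e-06). Its GMP values were far under background, and its LSK values were moderate. Ctla2a and Ctla2b, neighbouring protease inhibitor genes of similar sequence whose probe sets may share signal, were at least 15.6-fold and at least 11.1-fold higher (adjusted p = 0.0011 and 0.00125). Ctla2a stood at 10.69, 10.55 and 10.68 against 5.63, 5.55, 7.65 and 7.25, with GMP 3 and GMP 4 over background and GMP 1 and GMP 2 not, as for Ctla2b. Gcnt2, a glycosyltransferase of the I blood group antigen, showed the same split of GMP arrays, at 9.73, 10.00 and 9.70 against 4.89, 4.27, 6.19 and 6.67 (at least 12.5-fold, adjusted p = 0.00105). Gimap6, a GTPase of lymphocytes and stem cells, was at least 5.12-fold higher (adjusted p = 2.76e-05).

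The design uses this comparison as a filter on genes that the oncogenes changed, and no array is shared between it and oncogene-carrying GMP against GFP-carrying GMP. Of 659 genes higher in LSK and tested in both, 181 were also higher with AML1-ETO (27.5% of the LSK genes, and 30.4% of the AML1-ETO genes), against 8.78% of all 6779 genes tested in both. Of 372 lower in LSK, 50 were lower with AML1-ETO (13.4% and 30.7%, against 2.4%). The file tag was B for AML1-ETO 2 to 4, and A for AML1-ETO 1 and for GFP 1 to 3. Tag and oncogene thus largely coincide in that comparison, and the part of the tag in it was not tested. With MOZ-TIF2, 53 of 618 LSK-higher genes were higher (8.58% and 8.88%, against 8.87%), while 47 were lower (7.61%), and 34 of 374 LSK-lower genes were lower (9.09% and 17.4%, against 2.9%). With NUP98-HOXA9, which raised 8 genes among those tested in both (0.12%), 6 were higher in LSK (0.971% and 75.0%), and 0 were lower in both (1 gene, 0.015%, was lower with this oncogene). No gene was called with the same sign in all 3, and 17 higher and 10 lower genes were called in 2. All 3 oncogene comparisons used the same GFP arrays, so calls in 2 of them are not independent. Ordered by their smallest difference, the first of these were Sox4, Hoxa9, Tspan13, Hmgn3, Nsmf, Mef2c, Muc13 and Adgrl4, and Sema4a, Prss16, Hvcn1, Tmem119, Tpcn1, Pilrb1, Rrm2 and Tmed3. Of these, Hmgn3 did not pass in LSK against GMP without LSK 3, nor Nsmf without LSK 1 or LSK 2, nor Tpcn1 without LSK 1, LSK 2 or GMP 1. Pilrb1 did not pass without LSK 1, LSK 2, GMP 1, GMP 3 or GMP 4. Adgrl4, an adhesion receptor of stem cells and endothelium, stood at 10.54, 10.44 and 10.16 in LSK and at 7.62, 7.57, 8.43 and 8.48 in GMP (5.11-fold, adjusted p = 7.87e-04). Sema4a, a semaphorin, was at least 3.22-fold lower (adjusted p = 0.00249). The count shared with AML1-ETO, 231 in both directions, was 138 without LSK 1 and 142 without LSK 2, and that shared with MOZ-TIF2, 87, was 42 to 53 without LSK 1, LSK 2, LSK 3 or GMP 1.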

How the data were processed

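RNA of sorted LSK cells and GMP was amplified, per the labels' protocols together with that of the other groups, and hybridised to Affymetrix Mouse Genome 430A 2.0 arrays. The deposited table holds log2 expression values, 1 column per array. They came from CEL files written by MAS5 and were normalized with GCRMA 2.4.1 by the authors, per the series' design text and the submitters' processing notes. That text also says that arrays judged outliers were removed, with no numbers given. Of 22690 probe sets, 20380 carried 1 gene symbol in the annotation used, 691 several, 1555 none and 64 were controls; 20351 matched RefSeq. Only those with 1 symbol were analysed by gene, and each was read from its brightest probe set across the 24 arrays.

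Differences were fitted with limma 3.58.1 (R 4.3.3; lmFit, eBayes) on the 7 arrays, with Benjamini-Hochberg adjustment over all probe sets tested and a threshold of 0.05. The steps were tested on simulated data. Levels under background have no order. Precision is limited by how few arrays there are. The labels give shared replicate numbers but do not say that they pair samples, so the main fit used no pairing.

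The members, gene lists and tests were chosen with earlier results of these data known. Genes named are the sort genes, the 15 largest increases and decreases among called genes whose groups do not overlap, for each of 42 lists up to 5 called members ranked by adjusted p (1405 genes, 1244 on the array, 963 tested), fixed lineage markers, the oncogenes' partner genes, and 8 higher and 8 lower genes called with the same sign in the most oncogene comparisons, ordered by their smallest difference. List members that did not pass, Ddit3, Gadd45b, Il6ra, Tfrc and Tnfrsf1b, and genes marked as such, were named after their values were seen. Promoters are the 250 bases before the first start listed for a gene in RefSeq. The bound for genes with 2 or more arrays of the dimmer group under background was chosen after seeing the data. Alternatives are described in the closing section.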

Additional observations from a re-analysis of the deposited data

Results flagged for a closer look

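In 7 of the 193 genes tested this way, 1 of the 4 GMP arrays lay far from the others (a gap to the nearest above Dixon's 95% critical share of the group's range), and chance gives about 1 in 20. In 4 of the 7 the array was GMP 2. Aurka, a mitotic kinase, was at 8.69 on GMP 2 and at 9.15 to 9.16 on the others. Car2 was at 7.43 there, against 8.11 to 8.23. Pias3, a STAT inhibitor, was at 4.85 against 5.62 to 5.71, all under background. Ccl3 went the other way, at 7.85 on GMP 2 against 5.92 to 6.11. Elane stood at 13.03 on GMP 3 against 13.37 to 13.41. Gimap6 stood at 4.13 on GMP 1 against 4.81 to 4.90, and Zfpm1, a partner of GATA1, at 5.09 on GMP 4 against 4.71 to 4.76, all under background.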

How the results depend on the processing

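Of 193 named genes 186 passed, 126 stayed past the threshold whichever single array was dropped, 116 under every alternative but the methods' Welch test, and 36 under every alternative including it. No named value changed sign. The number of probe sets past the threshold, 1734, ranged from 765 to 2864 with single arrays left out (539 to 1585 higher, 226 to 1345 lower), and that of genes, 1300, from 593 to 2109. Quantile normalization gave 2782 probe sets (1383 lower) in 2104 genes, and median centring 2950 (1419 lower) in 2228. The file tag as a block over all 24 arrays gave 2997 (1993 higher, 1004 lower; 2239 genes), the file prefix as a block 919 (646 and 273; 717 genes), and array weights 4519 (2568 and 1951; 3282 genes). The methods' Welch test with Benjamini-Hochberg adjustment passed 268 (174 and 94; 227 genes), and 2852 without adjustment. Tag A arrays alone gave 362 lower. The replicate number as a block gave 2278. Same-numbered arrays correlated in their deviations at −0.06, 0.22 and −0.14, and other-numbered ones at −0.454 to 0.408. With so few arrays these values cannot decide whether the numbers pair samples. Genes shared with MOZ-TIF2 numbered 87, 42 to 113 with single arrays left out, 329 at an unadjusted p under 0.05 and 23 in 1 fit over all 24 arrays. For NUP98-HOXA9 these were 6, 5 to 7, 239 and 2, and for AML1-ETO 231, 138 to 281, 609 and 262. The cause of these shifts was not tested. Genes under background in 1 group have only a lower bound on their fold.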

Other observations

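The following genes and families were chosen after their values were seen and have no test of their own as a group. GIMAP genes encode GTPases known from lymphocytes. Gimap1, Gimap6 and Gimap7 were higher in LSK, Gimap1 at least 6.55-fold and Gimap7 at least 1.82-fold, while Gimap3 was not called, with a difference of −0.04. Il18, an inflammatory cytokine, stood at 8.69, 9.00 and 8.73 in LSK and at 6.07, 6.08, 5.96 and 5.97 in GMP. Both groups were tight and far apart, with a difference of 2.79 (limma, adjusted p = 1.39e-05).

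Symbols were also grouped by their stem into 231 families with at least 5 tested genes. In the Tspan family of tetraspanins 5 of 9 genes were higher, and in the Parp family of ADP-ribosyltransferases 4 of 7, where 11.2% of all genes were higher and 5.27% lower. These families were picked from the 231 for their counts. Of 8 Irf genes 4 were higher and 1 lower. In the Clec family of C-type lectins 4 of 8 were lower and none higher.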
